A study of Drosophila melanogaster with 8 samples.

Results

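Described here are 5 genes for enzymes and a membrane carrier, phu, CtsL1, Prps, Fmo-2 and Rim2, out of 12071 genes named on the arrays of this series. They were picked from earlier results of these data because their signal was higher with dexamethasone on the older of 2 array types, so their values on that type are given as a description, without a test. The rule set no numeric threshold. Each gene was read by 1 probe set per array type, 10 probe sets in all.

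S2 cells, the source of every sample, are a line derived from Drosophila melanogaster embryos that resembles blood cells (haemocytes). All 8 arrays carry the label CLKGR, which joins the circadian transcription factor CLK to the ligand-binding domain of the glucocorticoid receptor, so that dexamethasone (DEX) switches it on. A stable transfection is stated for only 1 array (an EtOH array), and whether the cells were a clone or a pool is not given in the labels. Every array is also labelled CHX, for cycloheximide, which blocks translation, so that DEX against control asks which transcripts respond without new protein. Of the older type, 2 arrays were labelled EtOH (ethanol) and 2 DEX. Of the newer, 2 were labelled V and 2 DEX. The labels do not spell out V, which served here as the control within its own type. None of the 8 arrays is labelled as lacking CHX or CLKGR.

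CLK works with its partner CYC as an activator of genes with E-box elements, among them the clock genes vri, tim, Pdp1 and cwo, and clocks also drive many metabolic genes outside the feedback loop. The 5 genes belong to such metabolic and degradative functions. phu encodes an alkaline phosphatase, which removes phosphate groups from small molecules and proteins. CtsL1 encodes a cathepsin L, a cysteine protease of the lysosome. Prps encodes the synthetase of phosphoribosyl pyrophosphate, the sugar donor from which purine, pyrimidine and pyridine nucleotides are built. Fmo-2 encodes a flavin-containing monooxygenase, which oxygenates nitrogen and sulphur atoms of small molecules with NADPH. Rim2 encodes a carrier of the inner mitochondrial membrane that moves pyrimidine nucleotides.

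Values are log2 of the deposited intensity, and the 2 array types were normalised separately, so no level of one is set against a level of the other. If the authors left the log scale with base e rather than 2, each log2 difference is to be multiplied by 0.693. The 4 CLK targets vri, tim, Pdp1 and cwo checked the labels. On the older type all 4 were higher on both DEX arrays than on both EtOH arrays, and vri, Pdp1 and cwo passed limma (differences of 4.04, 2.34 and 2.91, adjusted p = 0.0056, 0.0104 and 0.0297), where limma called 0.215% of all probe sets higher and 0.0488% lower. With the spread of all 8 arrays, described further on, limma called vri (adjusted p = 0.0030) and Pdp1 (0.0092) on the older type but not cwo (0.209). With each array centred on its median, 0 probe sets of the older type passed at all. On the newer type the same 4 were lower on both arrays labelled DEX (vri -2.07, Pdp1 -2.14, cwo -2.90, none passing in the fit of that type alone). With the spread of all 8 arrays vri and Pdp1 passed there as lower on the arrays labelled DEX (adjusted p = 0.0391 and 0.0313), and cwo did not (0.172). The direction of every difference on the newer type below therefore rests on labels that these targets oppose. Array pairs within a type correlated at 0.992 to 0.996 over all probe sets. The log2 ratios of 3′ to 5′ control probe sets for GAPDH, which are lower in more intact RNA, were 4.70 to 5.55 with EtOH and 4.64 to 4.87 with DEX on the older type, and 4.41 to 4.61 with V and 4.24 to 4.59 with DEX on the newer. The groups overlapped in that ratio on both types, as they did for actin. For eIF-4a they overlapped on the older type, but on the newer the ratio was 3.31 to 3.32 with V and 3.24 to 3.26 on arrays labelled DEX. All 11 haemocyte markers read on the older type and all 12 on the newer were above the minimum for testing, with srp, a haemocyte GATA factor, at 10.46 with EtOH and 12.76 with V. Their summed log2 level was 108.5 to 109.7 with EtOH and 109.4 to 110.6 with DEX on the older type, which overlap, and 140.7 to 140.9 with V and 142.2 to 143.7 on arrays labelled DEX on the newer, which do not. He, a haemocyte surface protein gene, differed by 1.09 there (adjusted p = 0.865). Of 9 markers of nerve, muscle, fat body and germline read, none had a group mean over 5.94 on the older type. The highest group mean on the newer was that of bam, at 6.22, although the nerve marker elav read 6.44 on the first V array. The summed log2 level of these 9 was 44.3 to 44.9 with EtOH and 44.2 to 44.4 with DEX on the older type, and 40.7 to 40.9 with V and 40.3 to 40.4 with DEX on the newer, and no member of either marker list passed limma on either type. On the newer type the groups did not overlap in the eIF-4a ratio or in either marker sum, and the part of these in the results below was not tested.

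Read by array type, the 5 genes shared one direction on the older arrays, and 4 of them the opposite direction on the newer. All 5 had both DEX arrays above both EtOH arrays on the older type. Such a separation was seen in 13% of the 10250 probe sets tested there, but the genes were chosen on this contrast and nothing is read from the count. For phu, CtsL1, Prps and Rim2 the newer type had both arrays labelled DEX below both arrays labelled V, where 23.9% of 12436 probe sets did, and Fmo-2 overlapped. The share of 23.9% is high, so the separation by itself says little. By size, 3 of the 5 genes, phu, Prps and Rim2, were lower by at least 1 on the newer type, against 0.507% of all probe sets, and CtsL1 missed that mark narrowly. With the labels of the newer type exchanged the same 3 would be higher by at least 1, again against 0.507% of all probe sets. Under the labels as given, 0.201% of all probe sets were higher by at least 1. The median difference of the 5 genes was 1.67 on the older type and -1.88 on the newer, beside medians over all tested probe sets of -0.01 and -0.0045.

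**Figure D1:**
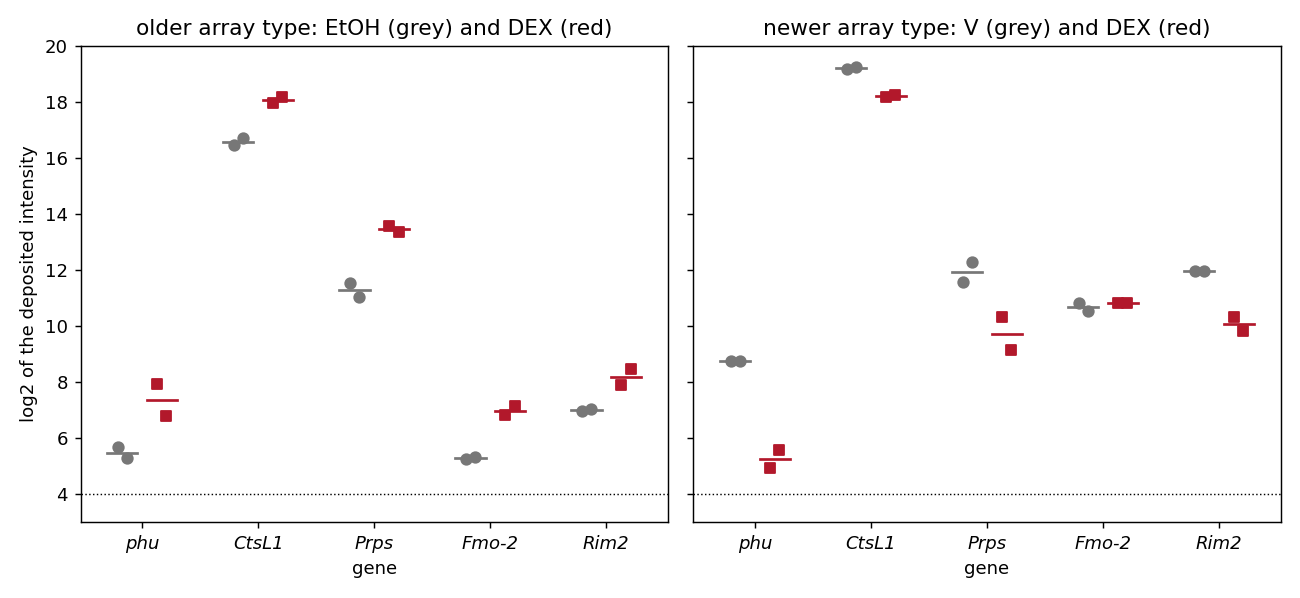
log2 of the deposited intensity of the 5 genes on each array, with the older type on the left and the newer on the right; grey circles are EtOH or V arrays, red squares DEX arrays, short bars the mean of 2 arrays, and the dotted line the minimum of 4 for testing. The red squares lie above the grey circles for all 5 genes on the left, and below them on the right for all but Fmo-2.

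The phosphatase gene phu had the lowest difference of any probe set on the newer type. Its 2 V arrays stood at 8.74 and 8.75, and the arrays labelled DEX at 4.93 and 5.58. The groups lay far apart, with the control pair almost identical and the DEX pair not far above the minimum of 4 for testing. The difference was -3.49 ± 0.28 (SE, n = 2 per group; 95% interval -4.34 to -2.65), 11.3-fold as deposited or 5.36-fold on base e. It was the lowest of 12436, and would be the highest with the labels of this type exchanged, yet the fit of this type alone did not call it (limma adjusted p = 0.849).

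phu on the older type was at 5.67 and 5.29 on the EtOH arrays and at 7.94 and 6.79 on the DEX arrays. Both DEX arrays were higher, but they differed from each other by more than the EtOH arrays did. The difference was 1.88 ± 0.37 (SE), 3.69-fold as deposited, and the residual SD of 0.60 exceeded that of 98.7% of probe sets tested. Without the first DEX array the difference was 1.31, and without the second 2.45.

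CtsL1, the cathepsin L gene, was higher on the DEX arrays of the older type and lower on those of the newer. EtOH arrays of the older type read 16.47 and 16.71 and DEX arrays 17.98 and 18.17. The groups were well separated, with a difference of 1.48 ± 0.12 (SE), 2.80-fold as deposited. The V arrays of the newer type read 19.18 and 19.24 and those labelled DEX 18.20 and 18.24. Here the DEX pair was the lower, by a difference of -0.99 ± 0.06 (SE; 95% interval -1.16 to -0.83), 1.99-fold, on a residual SD of 0.038 against a median of 0.144 over all probe sets. The call was not made in the fit of this type alone (limma adjusted p = 0.766). All 8 deposited values of CtsL1, from 90461 to 619902, exceed 65535, the top of a 16-bit scanner, so the scale of its folds is uncertain. Such values were not particular to CtsL1: 67 to 70 probe sets per array exceeded 65535 on the older type and 139 to 142 on the newer. The log2 differences and folds of all 5 genes depend on the base of the deposited scale, which was not tested. The CtsL1 probe set on the newer type ends in _s_at and can read more than 1 transcript or gene, so its difference between types is uncertain too.

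Prps, for the nucleotide precursor synthetase, differed by about the same amount in opposite directions. On the older type the EtOH arrays were at 11.54 and 11.05 and the DEX arrays at 13.58 and 13.35. The difference of 2.16 ± 0.22 (SE), 4.48-fold as deposited, was the largest of the 5 genes on this type and ranked number 18 from the top of 10250. Among the newer arrays, V stood at 11.58 and 12.29 and those labelled DEX at 10.31 and 9.13. Both pairs were spread widely there: the residual SD of 0.69 exceeded that of 98.4% of probe sets. The difference was -2.21 ± 0.55 (SE; 95% interval -3.90 to -0.53), 4.64-fold, and did not pass (limma adjusted p = 0.865). Its probe set on the newer type ends in _a_at, a class that can read several transcripts of a gene.

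Rim2, the pyrimidine nucleotide carrier gene, had the lowest difference of the 5 on the older type and a larger one of opposite sign on the newer. The EtOH arrays stood at 6.97 and 7.03 and the DEX arrays at 7.90 and 8.49. The EtOH pair agreed closely and the DEX pair did not, with a difference of 1.19 ± 0.23 (SE), 2.28-fold as deposited. For the newer type the V arrays read 11.98 and 11.95, and those labelled DEX 10.34 and 9.84. Again the control pair was tight and both DEX arrays lay clear of it, by a difference of -1.88 ± 0.22 (SE; 95% interval -2.54 to -1.22), 3.68-fold. That ranked number 22 from the lowest of 12436 and did not pass (limma adjusted p = 0.865).

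Fmo-2, the monooxygenase gene, was higher on the DEX arrays of the older type, and its groups overlapped on the newer. EtOH arrays of the older type were at 5.27 and 5.34 and the DEX arrays at 6.82 and 7.13. Both DEX arrays stood well above a tight EtOH pair, with a difference of 1.67 ± 0.15 (SE), 3.19-fold as deposited. With 16 added to each value before the log, which damps low signals, the difference was 1.36. V arrays of the newer type read 10.82 and 10.53 and those labelled DEX 10.81 and 10.84. The first V array lay between the DEX arrays, and the difference was 0.15 ± 0.14 (SE; 95% interval -0.29 to 0.59, limma adjusted p = 0.865). That interval leaves out a difference on the newer type as large as 1.67 in either direction. Both Fmo-2 probe sets are of the plain _at class.

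The fit of the newer type alone used arrays that the choice of the genes did not rest on, although results from them were already known. In the fit of that type alone 0 of the 5 genes passed limma and 0% of all 12436 probe sets did in either direction. At an unadjusted p under 0.05 lay 4 of the 5 genes, all but Fmo-2, and 3.53% of all probe sets. A fit to 4 arrays leaves 2 residual degrees of freedom. When genes read on both types were fitted together, with the spread taken from all 8 arrays and 4 residual degrees of freedom, phu and CtsL1 passed on the newer type (-3.49 ± 0.39 and -0.99 ± 0.11, SE, limma adjusted p = 0.0381 for both), beside 0.155% of 8404 genes called lower and 0.0119% called higher. Rim2 (adjusted p = 0.0770), Prps (0.192) and Fmo-2 (0.974) did not pass in that fit. The spread in that fit came partly from the older arrays, on which the genes were chosen, so its calls are not independent of that choice. The calls of phu and CtsL1 thus depend on which arrays supply the spread.

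Among genes with comparable values on the older type, the 4 genes with opposite signs were in the majority and Fmo-2 was not. Of the 8404 genes read on both types, 31 had a difference on the older type at least as large as that of Rim2, the 5 genes included. On the newer type 28 of these, 90.3%, had both arrays labelled DEX below both V arrays, against 20.5% of all 8404 genes. The groups of the other 3, Fmo-2, pnr and CG10366, overlapped. A difference under 0 was seen in 29 of the 31, or 93.5%, against 49.5% of all 8404, and Fmo-2 (0.15) and CG10366 (0.02) were the exceptions. Over all 8404 genes, 1.81% had both DEX arrays above EtOH on the older type and below V on the newer, whereas 2.52% had both above on both types and 2.64% both below on both.

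**Figure D2:**
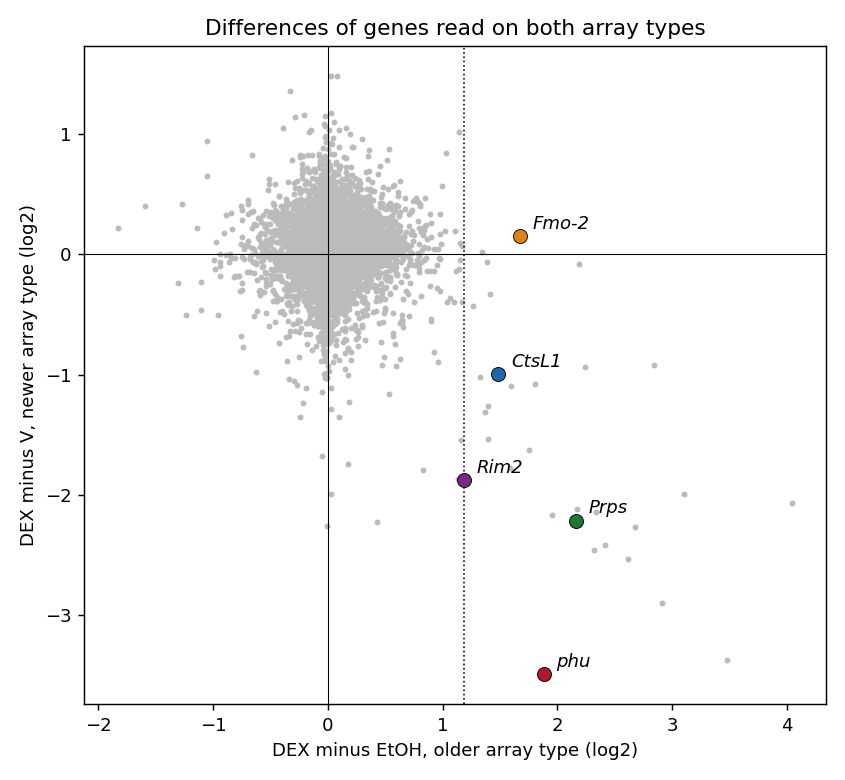
DEX minus EtOH on the older type (horizontal) against DEX minus V on the newer type (vertical), both in log2, for 8404 genes in grey, with the 5 genes in colour; the dotted line marks the older-type difference of Rim2, 1.19. To the right of that line 29 of 31 genes lie below 0 on the vertical axis, phu lowest at -3.49, and Fmo-2 lies just above 0.

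The 5 genes did not share one pattern in detail across the 8 arrays. After centring each gene on its mean within each array type, the root mean square (RMS) distance between the log2 values of 2 genes was smallest for CtsL1 and Rim2, at 0.37, and largest for phu and Fmo-2, at 1.36. Pearson r between pairs of the 5 genes ran from 0.35 for phu with Fmo-2 to 0.93 for Prps with Rim2, as a description over 8 arrays that share their labels and normalisation.

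The 3 genes with the most similar pattern to each were found by the same distance among 8404 genes. Those nearest to phu were CG3348, Tret1-1, a trehalose transporter gene, and CG3764, at distances of 0.52, 0.53 and 0.61, against an RMS of phu's own centred values of 1.44. Their differences on the newer type were -2.17, -2.42 and -2.46, each smaller in size than that of phu. Nearest to CtsL1 were E(spl)mbeta-HLH, a Notch-responsive repressor gene, CG7530 and Hex-A, for a hexokinase, at 0.15, 0.17 and 0.19. These 3 genes had differences of 1.81, 1.60 and 1.39 on the older type and -1.08, -1.10 and -1.26 on the newer. Nearest to Prps were CG6231, the organic cation transporter gene Orct2 and the clock gene Pdp1, at 0.29, 0.31 and 0.33. Nearest to Rim2 were REPTOR, a transcription factor gene of the TOR pathway, hry, a bHLH repressor gene, and FASN1, for fatty acid synthase, at 0.17, 0.20 and 0.28. Their differences were 1.14, 1.16 and 1.40 on the older type and -1.87, -1.54 and -1.53 on the newer. Fmo-2 was nearest to pnr, a GATA factor gene, Shc, a signalling adaptor gene, and Naa20A, for an N-terminal acetyltransferase subunit, at 0.17, 0.23 and 0.24. The differences of these 3 genes were 1.39, 1.15 and 1.15 on the older type, and -0.06, -0.12 and -0.04 on the newer. CG7530, CG6231, Pdp1 and REPTOR are read by _s_at probe sets on the newer type and are uncertain.

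**Figure D3:**
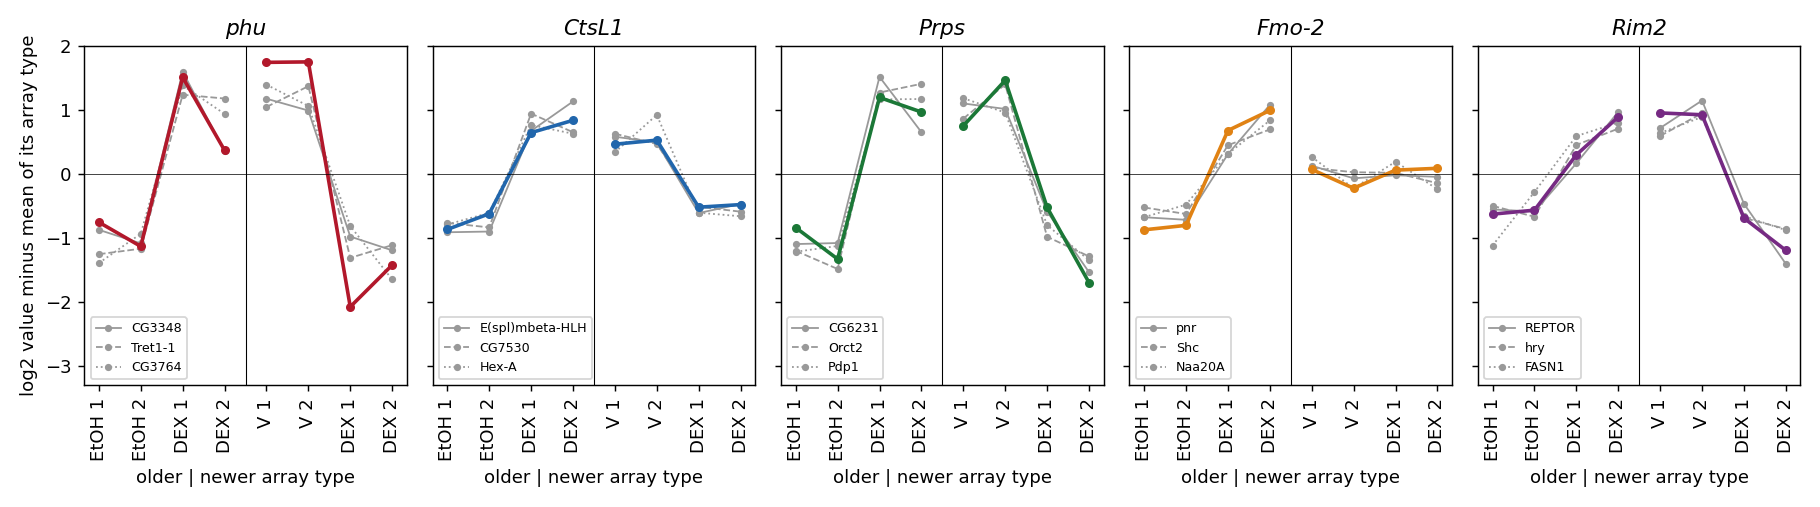
log2 values minus the gene's mean within each array type (vertical) on the 8 arrays (horizontal), for each of the 5 genes in colour and its 3 nearest genes in grey; the vertical line separates the array types. The coloured lines of phu, CtsL1, Prps and Rim2 go up from EtOH to DEX on the left and down from V to DEX on the right, and that of Fmo-2 stays near 0 on the right.

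Other genes of the same families and pathways were read from 9 lists. The lists held 129 genes, of which 89 were tested on the older type and 91 on the newer by their brightest probe set. limma called 0 on either type, beside 0.215% of all probe sets called higher and 0.0488% lower on the older type and 0% on the newer, so a count of 0 is near the background. The fit with the spread of all 8 arrays also called 0. At an unadjusted p under 0.05 lay 1 gene on the older type, 1.12% beside 5.85% of all probe sets, and 4 on the newer, 4.40% beside 3.53%. The differences ran from -0.46 to 0.80 on the older type and from -0.997 to 0.45 on the newer. CtsL1 (-0.99) and Fmo-2 (0.15) lay within the newer range, but its low end was spin, on an uncertain _s_at probe set. In the family of CtsL1, the cysteine cathepsins and their inhibitors, the newer range was -0.24 to 0.15.

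Among alkaline phosphatases other than phu, 6 of 12 were tested on each type, with medians of 0.0046 and -0.0040. Alp6 stood at 3.37 with EtOH and 3.998 with DEX on the older type, under the minimum for testing on average, and at 7.24 with V and 6.37 on arrays labelled DEX on the newer (-0.87, adjusted p = 0.865). Alp12 differed by 0.49 and 0.39, and Alp13 by -0.04 and 0.29, on the older and newer types. Alp13 was near the minimum of 4 on both, at 4.71 with EtOH and 4.10 with V. None of the 3 passed.

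Cysteine cathepsins and their inhibitors, the family of CtsL1, had 10 of 12 genes tested on each type, and their medians were 0.05 and 0.02. CtsL4 differed by 0.17 and 0.0055, Swim, a secreted cathepsin-like protein gene, by 0.01 and 0.15, and CG6357 by 0.05 and -0.24, none passing. Swim was read by an uncertain _s_at probe set on the newer type. In the wider lysosomal list 16 of 20 genes were tested on the older type and 15 on the newer, with medians of -0.03 and 0.12. spin, for a lysosomal membrane transporter, stood lowest on the newer type, at 11.97 with V and 10.98 on arrays labelled DEX (-0.997, adjusted p = 0.865, an uncertain _s_at probe set), and differed by -0.03 near the floor on the older. Hexo2, a hexosaminidase gene, differed by -0.46 and 0.29 by type, and Sap-r, for the saposin precursor, by 0.18 and -0.12.

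Next came the nucleotide pathways around Prps and Rim2. For purine synthesis 9 of 14 genes were tested on the older type and 10 on the newer, with medians of 0.01 and -0.05. Paics, Adsl and Adss, for later steps of the purine route, differed by 0.26, 0.29 and 0.28 on the older type and by -0.32, -0.01 and 0.33 on the newer. Adsl was near the minimum of 4 on the newer type, at 4.03 with V and 4.02 on arrays labelled DEX. For pyrimidines and deoxynucleotides 9 of 10 genes were tested on each type, with medians of -0.02 and 0.24. The salvage kinase gene dnk differed by -0.28 and 0.41 and dUTPase by -0.33 and 0.34. udd, which this list also held although it is known for transcription of ribosomal RNA genes, differed by -0.02 and 0.24. In the pentose phosphate pathway, which supplies the sugar that Prps uses, 4 of 6 genes were tested on each type, with medians of 0.03 and 0.28. Pgls, for its lactonase, was at 7.92 and 6.65 on the DEX arrays of the older type against a mean of 6.49 with EtOH, so its difference of 0.80 (adjusted p = 0.964) came mostly from 1 array, and on the newer type it was -0.08. Rpe and Taldo, for enzymes of the same pathway, differed by 0.0019 and -0.10 on the older type and by 0.31 and 0.24 on the newer.

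Fmo-1, the other flavin monooxygenase gene, was near the minimum on both types, at 4.43 with EtOH and 4.17 with V, and differed by -0.09 and -0.06. Of 44 other mitochondrial carrier genes 27 were tested on the older type and 29 on the newer, with medians of 0.07 and -0.02. The carrier gene CG8026 was at 5.90 with EtOH and 6.40 with DEX (0.50, adjusted p = 0.669), and differed by 0.29 on the newer type. CG18324 was at 7.11 and 5.75 on the DEX arrays of the older type against 5.60 and 5.75 with EtOH, so its difference of 0.75 came mostly from 1 array, and on the newer type it was 0.16. Mtch differed by 0.23 and 0.30, the latter on an uncertain _s_at probe set. Rim2 was chosen on the older type, so only the newer type sets it beside the other carriers. There Rim2 differed by -1.88 and the others tested by -0.50 to 0.45. Among genes that maintain mitochondrial DNA, which draws on imported nucleotides, 7 of 9 were tested on each type, with medians of -0.02 and 0.13. mtTFB2, PolrMT and mTerf3, for factors of mitochondrial transcription, differed by -0.11, 0.14 and 0.21 on the older type and by -0.19, -0.23 and 0.24 on the newer.

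**Figure D4:**
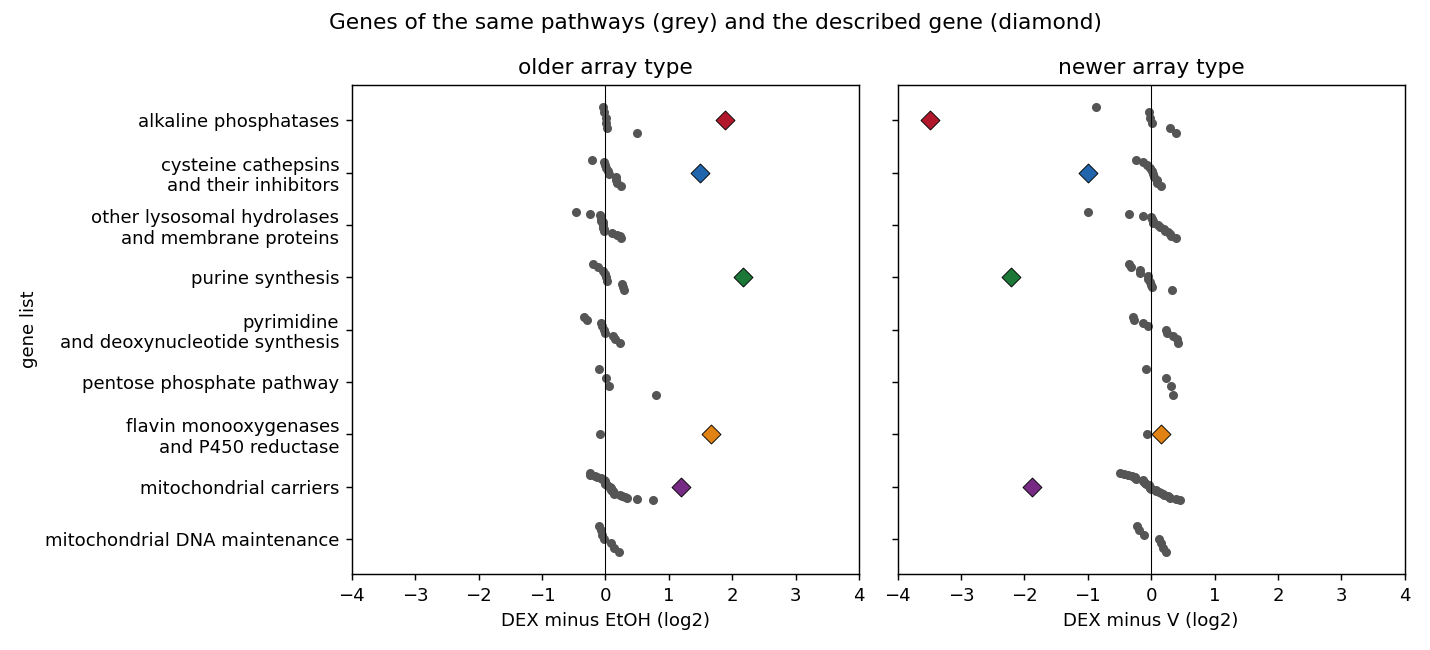
DEX minus control in log2 (horizontal) on the older and the newer type for the tested genes of 9 lists (grey points, 1 per gene) and, as coloured diamonds, phu, CtsL1, Prps, Fmo-2 and Rim2 beside the list of their family or pathway. The grey points run from -0.46 to 0.80 on the left and from -0.997 to 0.45 on the right. The diamonds on the left show the contrast the 5 genes were chosen on. On the right those of CtsL1 (-0.99) and Fmo-2 (0.15) lie within the range of all grey points. The lowest grey point there is spin, of the wider lysosomal list, and those of the cathepsin list run from -0.24 to 0.15.

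Neighbouring genes were looked at after the values of the 5 genes had been seen. In the RefSeq gene order the 2 protein-coding genes on each side of each gene, 20 in all, gave 15 tested genes on each array type. limma called 0 of them on either type, with 0 on the older and 1 on the newer at an unadjusted p under 0.05. Over all probe sets 0.215% and 0.0488% were called on the older type, 0% on the newer, and 5.85% and 3.53% lay under the unadjusted 0.05, so in 15 genes these counts are near the background. Their differences ran from -0.37 to 0.46 on the older type and from -0.51 to 0.50 on the newer. Beside phu, RhoL differed by 0.13 and 0.50 on the older and newer types, the latter at an unadjusted p of 0.0255 (limma). CG8149 differed by -0.0057 and 0.04. Beside CtsL1, Rpn13, for a proteasome ubiquitin receptor, differed by 0.46 and 0.06. Eno, for the glycolytic enzyme enolase beside Rim2, differed by 0.26 and -0.03, and Debcl, of the Bcl-2 family, beside Fmo-2 by 0.25 and -0.15. Beside Prps, alphaTub67C differed by -0.0036 and -0.12. CG16717, also beside Prps, differed by -0.0016 and -0.51, with groups that overlapped on both types. Rpn13 and Eno were read by uncertain _s_at probe sets on the newer type. No 2 of the 5 genes were among each other's neighbours.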

How the data were processed

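RNA from S2 cells was read on 8 Affymetrix arrays of 2 types, 4 per type. Per the submitters' processing notes GCRMA produced the deposited intensity values (background correction by probe sequence, quantile normalisation, 1 summary per probe set); its version and the base used to leave its log scale are not given in the sources used here. Files were deposited as 1 table per type, with 0 columns lacking a sample.

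log2 was taken with no pseudocount. Control probe sets (44 and 183 on the older and newer type) were left out, and probe sets with a mean log2 of at least 4 were tested. limma 3.58.1 (R 4.3.3) was run on each type by itself, with lmFit and trended eBayes; tests were two-sided, and Benjamini-Hochberg adjustment covered all tested probe sets, with a threshold of 0.05; every adjusted p is from limma. The fits were tested on simulated data. Probe sets were named by the platform annotation, updated through RefSeq (Release 6 plus ISO1 MT): 12444 and 13647 had 1 symbol, 327 and 402 several and 1239 and 4903 none, and 12394 and 13544 of those with 1 matched a current gene. All 5 genes matched on both types. Where a gene had several probe sets, the brightest represented it.

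The genes, lists and tests were chosen with earlier results of these data known. Named from each list were up to 3 genes with the smallest p on either type, and for each of the 5 genes the 3 with the nearest pattern. Alternatives were the minimum, the scaling, a pseudocount of 16, no trend, the spread of all 8 arrays, leaving out each array and, added after seeing the data, a replicate block. Separate cultures are not mentioned in the labels, so the p-values reflect array-to-array spread that may be technical; 2 arrays per group limit the precision. The title and the source name of 1 DEX array of the newer type give different replicate numbers, and the title was used.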

Additional observations from a re-analysis of the deposited data

Results flagged for a closer look

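These results are listed because both DEX arrays lay on opposite sides of both control arrays on the 2 array types. Listed genes also reached the minimum mean log2 of 4 on both types. The difference between the effects was not tested here. Of the 5 described genes, 4 were listed. The effect on the newer minus that on the older type was -5.38 for phu, -4.38 for Prps, -3.07 for Rim2 and -2.48 for CtsL1, the last on an uncertain _s_at probe set of the newer type. For the CLK targets it was -6.11 for vri, -5.81 for cwo, -5.15 for tim and -4.48 for Pdp1. vri and Pdp1 were read on the newer type by uncertain _s_at probe sets. For tim the older type was read by an uncertain _s_at probe set, and both arrays labelled DEX of the newer type stood at 3.76, under the minimum of 4.

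Genes named for their likeness to the 5 were chosen by that pattern. The value was -4.12 for CG3348, -4.84 for Tret1-1, -4.78 for CG3764, -2.88 for E(spl)mbeta-HLH, -2.70 for CG7530, -2.66 for Hex-A and -4.29 for CG6231. It was -4.95 for Orct2, -1.27 for Shc, -3.00 for REPTOR, -2.71 for hry and -2.93 for FASN1. Among listed pathway genes the values were smaller, at -0.29 for CG6357, 0.75 for Hexo2, -0.58 for Paics, 0.69 for dnk and 0.34 for Taldo. Alp6, of the family of phu, also had its DEX arrays on opposite sides, with a larger value of -1.50. It was not listed because its mean on the older type was under the minimum of 4.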

How the results depend on the processing

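The sign of all 5 differences on each type was kept under the 7 alternatives that could change it; the other 5 leave the differences as they are. On the older type they lay between 1.31 and 2.45 for phu, 1.36 and 1.61 for CtsL1, 1.92 and 2.41 for Prps, 1.36 and 1.83 for Fmo-2 and 0.89 and 1.49 for Rim2. On the newer type they lay between -3.82 and -3.03 for phu, -1.06 and -0.96 for CtsL1, -2.80 and -1.63 for Prps, -2.13 and -1.63 for Rim2, and 0.0037 and 0.30 for Fmo-2. The number of probe sets called on the older type, 27 (22 higher and 5 lower), depended on the processing: 73 with no filter, 13 with a minimum of 6, 0 with median centring, 4 (all higher) with quantile normalisation repeated, 12 without the intensity trend and 14 genes with the spread of all 8 arrays. Leaving out 1 array gave 0 to 447 calls, 0 without either EtOH array, 262 without the first DEX array and 447 without the second. On the newer type 0 probe sets passed, with 439 at an unadjusted p under 0.05, and 0 under every alternative except the spread of all 8 arrays, which called 14 genes, phu and CtsL1 among them (adjusted p = 0.0381 for both, and 0.0381 to 0.891 for the 2 genes over the alternatives). With 2 arrays per group, the cause of these shifts was not tested. The spread of all 8 arrays came partly from the older arrays, on which the 5 genes were chosen. The titles number only 1 of the 2 control arrays of each type, so they do not settle a pairing. A replicate block, chosen after seeing the data, paired the arrays titled 2 and, by elimination, the remaining pair. It called 34 probe sets on the older type (28 higher and 6 lower) and 0 on the newer, where 0 of the 5 genes passed (adjusted p of at least 0.891). Deviations of the arrays so paired correlated at 0.26 on the older type and -0.02 on the newer, over 10250 and 12436 probe sets.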
